A study of Homo sapiens with 24 samples.

Results

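The genes described here are 53 genes of DNA replication and S phase, out of 26346 genes in each count table. They are a list of gene symbols, drawn up with earlier results of these data known, and all 53 were found and passed the filter on low counts in each of 3 cell lines. RNA was sequenced from 24 libraries in 12 groups of 2, all from human cell lines infected with lentivirus for 48 h and then selected. VCaP, a prostate cancer line in which the TMPRSS2-ERG fusion drives the ETS factor ERG, carried shCt (the control hairpin), shERG or shARID1A and was selected with puromycin for 8 days. LNCaP, a prostate cancer line without that fusion, carried an empty vector, ERG or ETV1 (another ETS factor) and was selected with blasticidin for 4 days. SW13, an adrenal carcinoma line, carried Empty or V5-tagged ERG beside V5-tagged GFP, BRG1 or BRG1-K785R, a BRG1 changed in its ATPase domain, and was selected with both drugs for 2 days. BRG1, the product of SMARCA4, is the ATPase of the BAF chromatin remodeler, and ARID1A is one of its subunits. The label sources name neither the promoters of the constructs nor the number of hairpins per target, and one version of the protocol has luciferase where the titles have GFP.

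Replication is prepared in G1, when the origin recognition complex, CDC6 and CDT1 load the MCM2-7 helicase onto DNA. In S phase CDC45 and GINS turn that ring into a working helicase, polymerases with the clamp PCNA copy the strands, and ribonucleotide reductase supplies the building blocks. Many of these genes are known targets of E2F factors. The retinoblastoma protein holds these in check until cyclin-dependent kinases act, CDK2 with cyclin E among them.

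Promoters from RefSeq (build GRCh38.p14) were found for 43 of the 53 genes. The counts were made on hg19, so the positions below only place the sequences. Each promoter was searched on both strands, from 250 bases before to 50 after the start, for E2F sites (TTTCCCGC, TTTCGCGC, TTTGCCGC or TTTGGCGC), CCAAT boxes (CCAAT), an ETS site (CCGGAAGT) and the cell cycle element CHR (TTTGAA or TTCGAA). E2F letters stood in 23 of 43 promoters (53.5%), against 3.31% of all 35116 promoters in the table. CCAAT stood in 53.5% against 34.6%, the ETS letters in 6.98% (GINS3, POLA1 and RFC4) against 4.14%, and CHR in 4.65% (MCM6 and RRM1) against 16.4%. Among 11801 genes tested in VCaP, with 1 promoter each, the shares were 5.02% for E2F, 36.3% for CCAAT, 7.74% for ETS and 11.2% for CHR. Against these tested genes, the ETS share of the 43 promoters was not higher. A match describes letters only.

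Shown here are the promoters of the genes that fell most with shARID1A in VCaP (MCM10, EXO1, DTL, RRM2) and of those closest to no change (POLE, SLBP), among genes with a printable entry and a mean of at least 5 CPM (reads scaled to the library total). They lie at chr10:13161308-13161587 (+ strand), chr1:241847954-241848233 (+), chr1:212035498-212035777 (+), chr2:10122489-10122768 (+), chr12:132687313-132687592 (-) and chr4:1712290-1712569 (-), and run 5′ to 3′ from 250 bases before to 30 after the start. Capitals mark matches to the letters searched.
MCM10: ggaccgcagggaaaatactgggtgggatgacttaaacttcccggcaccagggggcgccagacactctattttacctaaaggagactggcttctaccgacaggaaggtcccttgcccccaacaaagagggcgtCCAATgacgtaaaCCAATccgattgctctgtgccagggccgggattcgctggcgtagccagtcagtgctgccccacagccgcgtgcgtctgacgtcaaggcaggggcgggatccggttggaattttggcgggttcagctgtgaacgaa
EXO1: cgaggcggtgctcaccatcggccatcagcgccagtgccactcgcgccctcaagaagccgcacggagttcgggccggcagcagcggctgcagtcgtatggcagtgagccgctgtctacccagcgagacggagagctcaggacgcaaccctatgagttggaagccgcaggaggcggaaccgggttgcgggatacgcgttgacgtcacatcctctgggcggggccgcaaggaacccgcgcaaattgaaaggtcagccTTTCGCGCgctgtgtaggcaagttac
DTL: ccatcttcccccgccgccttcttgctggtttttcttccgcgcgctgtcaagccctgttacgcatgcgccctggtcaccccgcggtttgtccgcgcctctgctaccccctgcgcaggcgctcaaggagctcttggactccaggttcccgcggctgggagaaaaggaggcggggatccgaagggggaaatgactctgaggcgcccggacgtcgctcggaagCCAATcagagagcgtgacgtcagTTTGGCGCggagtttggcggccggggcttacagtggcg
RRM2: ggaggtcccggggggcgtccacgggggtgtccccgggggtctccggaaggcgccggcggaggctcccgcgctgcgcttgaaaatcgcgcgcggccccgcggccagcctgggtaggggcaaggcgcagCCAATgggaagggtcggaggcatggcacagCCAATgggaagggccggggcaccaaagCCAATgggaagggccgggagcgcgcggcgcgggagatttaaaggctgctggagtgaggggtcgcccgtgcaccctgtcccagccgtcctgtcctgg
POLE: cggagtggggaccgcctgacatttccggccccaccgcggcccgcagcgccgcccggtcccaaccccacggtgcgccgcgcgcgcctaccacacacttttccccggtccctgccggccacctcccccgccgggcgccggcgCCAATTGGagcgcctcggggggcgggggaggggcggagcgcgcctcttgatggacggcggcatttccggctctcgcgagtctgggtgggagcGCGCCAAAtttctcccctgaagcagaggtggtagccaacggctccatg
SLBP: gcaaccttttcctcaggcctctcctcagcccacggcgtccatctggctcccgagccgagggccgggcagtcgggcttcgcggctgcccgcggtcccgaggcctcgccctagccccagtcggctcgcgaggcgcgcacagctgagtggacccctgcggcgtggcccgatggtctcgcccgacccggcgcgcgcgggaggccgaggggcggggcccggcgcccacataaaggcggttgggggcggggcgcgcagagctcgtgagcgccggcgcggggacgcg
EXO1, DTL and POLE hold E2F letters. MCM10, DTL and RRM2 hold CCAAT, and POLE holds it on both strands in overlap. SLBP holds no match, and none of the 6 holds the ETS or CHR letters. EXO1 and DTL fell strongly and POLE barely moved, while MCM10 and RRM2, which also fell strongly, hold no E2F letters. Over the 43 genes, the median log2 change with shARID1A was -2.51 for the 23 with E2F letters and -1.90 for the 20 without. With shERG it was -1.74 and -1.29. Genes with CCAAT also had lower medians than those without. Several genes hold both kinds of letters, DTL and POLE among them, so these splits are not independent. For CCAAT the medians were -2.78 with the letters and -1.88 without for shARID1A, and -1.835 and -1.324 for shERG. The few genes with ETS letters (-1.19 against -2.40) or CHR (-1.655 against -2.29) fell less with shARID1A. All these values are given without a test.

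Libraries held 19754265 to 41996681 counted reads, and the targeted genes shown here followed the labels. In VCaP, ERG read 330.4 and 354 CPM with shCt, 81 and 87.9 with shERG and 242 and 238 with shARID1A, and ARID1A read 251 and 249.8 CPM with shCt and 71.9 and 75.3 with shARID1A. In LNCaP, ERG went from 0.277 and 0.619 to 996 and 958 CPM with its construct, and ETV1 from 568 and 590.5 to 3749 and 3626. In SW13, SMARCA4 read 31.4 and 25.5 CPM with GFP and Empty, and 2150 and 2201 with BRG1 and Empty, where reads of the construct and of the gene are summed. For SW13, ERG is given only within the summed level of ERG, ETV1, ARID1A and SMARCA4. Beside GFP that sum went from 380 and 359 CPM with Empty to 1970 and 2093 with ERG. Beside BRG1-K785R it went from 2565 and 2418 to 3335 and 3360 CPM. Beside BRG1 it went from 2448 and 2497 to 4014 and 4618 CPM. The summed level of 7 prostate luminal markers (KLK3, KLK2 and others) was 11355 and 12020 CPM with shCt, 6325 and 6692 with shERG and 7965 and 8342 with shARID1A, and 4981 to 6592 CPM in LNCaP. It moved with the VCaP groups, and its part in the results below was not tested. In SW13 the adrenal cortex markers CYP11B1, HSD3B2 and MC2R had 0 reads in every library, and the summed level of all 8 such markers was 11.7 to 22.9 CPM.

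The summed level of the 53 genes was 3524 and 3431 CPM in the shCt libraries, 1469 and 1610 with shERG and 947 and 945 with shARID1A. Neither hairpin group overlapped the controls, and the shARID1A libraries lay lowest of all 24. In LNCaP the sums were 2590 and 2689 CPM with Empty, 1958 and 2643 with ERG and 2471 and 2250 with ETV1. In SW13 without ERG they were 4943 and 5467 CPM beside GFP, 5339 and 5330 beside BRG1-K785R and 5303 and 5383 beside BRG1. With ERG they were 4539 and 4418, 4977 and 4962 and 3771 and 3565 CPM in the same order, and the libraries with BRG1 and ERG stood below all other SW13 libraries. Gene by gene, shARID1A had the lowest mean CPM of the 12 groups for 48 of the 53 genes. On the deposited length-corrected scale (RPKM), PCNA was highest in VCaP shCt at 186 and CCNE1 lowest at 1.08, around a median of 15.6. That median was 6.45 RPKM with shERG and 3.96 with shARID1A.

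**Figure D1:**
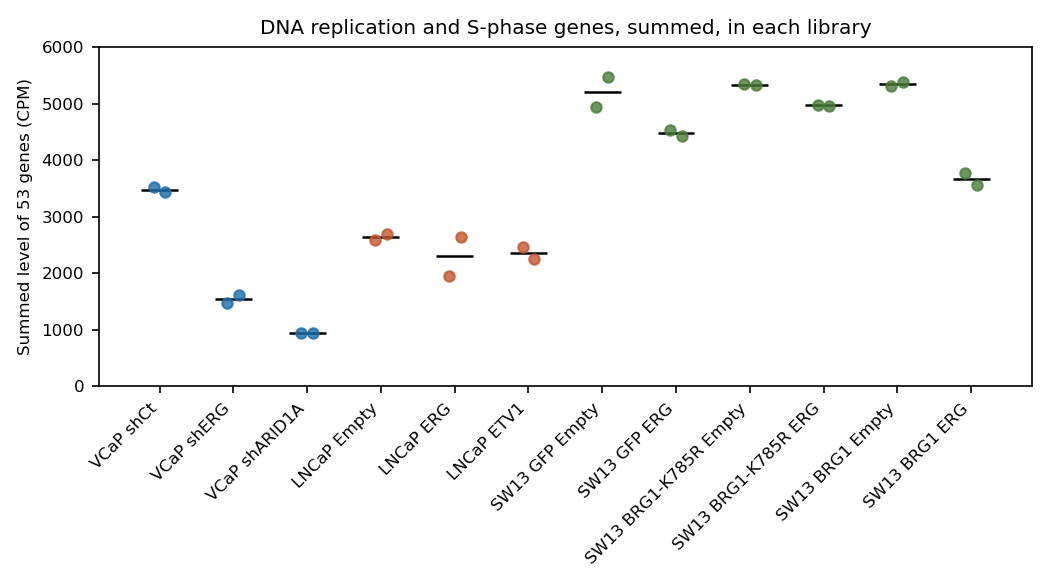
Summed level of the 53 genes (CPM, linear axis from 0) in each of the 24 libraries, by group. Points are libraries. The VCaP hairpin groups sit below their control, and the LNCaP ERG libraries lie apart at 1958 and 2643 CPM.

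In VCaP the first comparison asked which genes change when ERG is lowered. With shERG, 51 of the 53 genes fell and 2 rose (PRIM2 and RPA3), and 42 fell at least 2-fold. Over all 16791 genes tested, 37.4% were called lower, 29.3% higher and 11.0% lower by at least 2-fold. A gene was called at an adjusted p under 0.05 (edgeR, two-sided, Benjamini-Hochberg over all genes tested), and changes are on the log2 scale with an approximate standard error (SE). The median change was -1.54 over the 53 genes and -0.053 over all genes. Both shERG libraries lay below both controls for 50 of the 53, against 33.6% of all genes. These are bulk libraries, so fewer cells in S phase and less RNA per cell cannot be told apart.

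E2F1 and E2F2 fell furthest of the 53. E2F1, an activator of S-phase genes, read 109.8 and 102 CPM with shCt and 10.8 and 14.9 with shERG. Both shERG libraries were far below the controls, a change of -3.24 (SE 0.09, adjusted p = 6.84e-18) or 9.44-fold. E2F2, another activator, read 39.2 and 41.6 against 6.68 and 6.97 CPM (-2.75), and the repressors E2F8 and E2F7 fell by 2.40 and 1.83. CCNE2, an E-type cyclin, went from 66.6 and 65.8 to 19.7 and 22.3 CPM (-1.85), and CDK2, its kinase, fell by 1.12. CCNE1, the other E-type cyclin, was low in this line, with 60 and 49 reads in the shCt libraries and 21 and 41 with shERG (-1.11). Its call was lost without shERG library 1 (-0.53, adjusted p = 0.151).

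All 6 MCM2-7 genes fell, by 1.15 (MCM7) to 1.78 (MCM2). MCM2 read 136 and 131 CPM with shCt and 41 and 47.7 with shERG. MCM4 read 318 and 308 CPM with shCt and 114 and 130.4 with shERG. Both helicase genes were well apart between the groups. All 6 origin and licensing genes fell as well. MCM10, which helps start unwinding, went from 34.5 and 31.5 to 7.59 and 8.13 CPM (-2.26), and ORC1, the largest origin recognition subunit, from 19.7 and 17.7 to 4.44 and 6.58 (-1.96). GMNN, the inhibitor of CDT1, fell least of the 6, by 0.86. CDC45, the helicase activator, went from 26.9 and 25.5 to 4.51 and 5.23 CPM (-2.62), and all 4 GINS genes fell, by 1.26 (GINS3) to 2.01 (GINS2).

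Among the 8 polymerase and primase genes, 7 were called lower and 1 higher. POLD1, the catalytic subunit of polymerase delta, went from 44.6 and 46 to 11.4 and 14.8 CPM (-1.98). POLE, the catalytic subunit of polymerase epsilon, read 149.6 and 165 CPM with shCt and 164 and 165 with shERG, so the libraries overlapped. Its scaled change (-0.12, adjusted p = 0.0364) lost the call under RLE scaling (adjusted p = 0.13) and turned to 0.063 with library totals as the scale. PRIM2, the large primase subunit, read 11.3 and 10.2 CPM against 14.8 and 16.1 (0.34, adjusted p = 0.0209). Of the 53 genes, 22 overlap another gene, so their reads are uncertain. Among them are PRIM2 and RPA3, and also genes that fell, such as MCM2 and UHRF1. The PRIM2 rise lost the call in DESeq2 (adjusted p = 0.0518), without shCt library 2 (adjusted p = 0.159) and without shERG library 2 (adjusted p = 0.114).

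In the clamp, loader and flap group, RPA3, the smallest subunit of the single-strand binding protein, was the gene that rose, from 10.3 and 10.8 to 15.2 and 14.9 CPM (0.33, adjusted p = 0.00747). PCNA went from 279 and 258 to 101 and 109.6 CPM (-1.54), and the exonuclease gene EXO1 from 24.7 and 23.9 to 4.54 and 7.08 (-2.27). The 4 nucleotide supply genes fell. RRM2, the small subunit of ribonucleotide reductase, fell by 2.18, TYMS, thymidylate synthase, by 1.93, and RRM1, the large reductase subunit, by 0.82, while TK1, thymidine kinase, read 141 and 128 against 28.1 and 34.1 CPM. UHRF1, which carries DNA methylation through replication, fell by 1.93 and SLBP, which binds histone mRNA ends, by 0.53. CLSPN, a fork checkpoint mediator, and DTL, which marks CDT1 for destruction, fell by 2.27 and 2.19. FAM111B, a protease gene, read 77.4 and 78 CPM with shCt and 17.3 and 19.4 with shERG (-2.27).

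**Figure D2:**
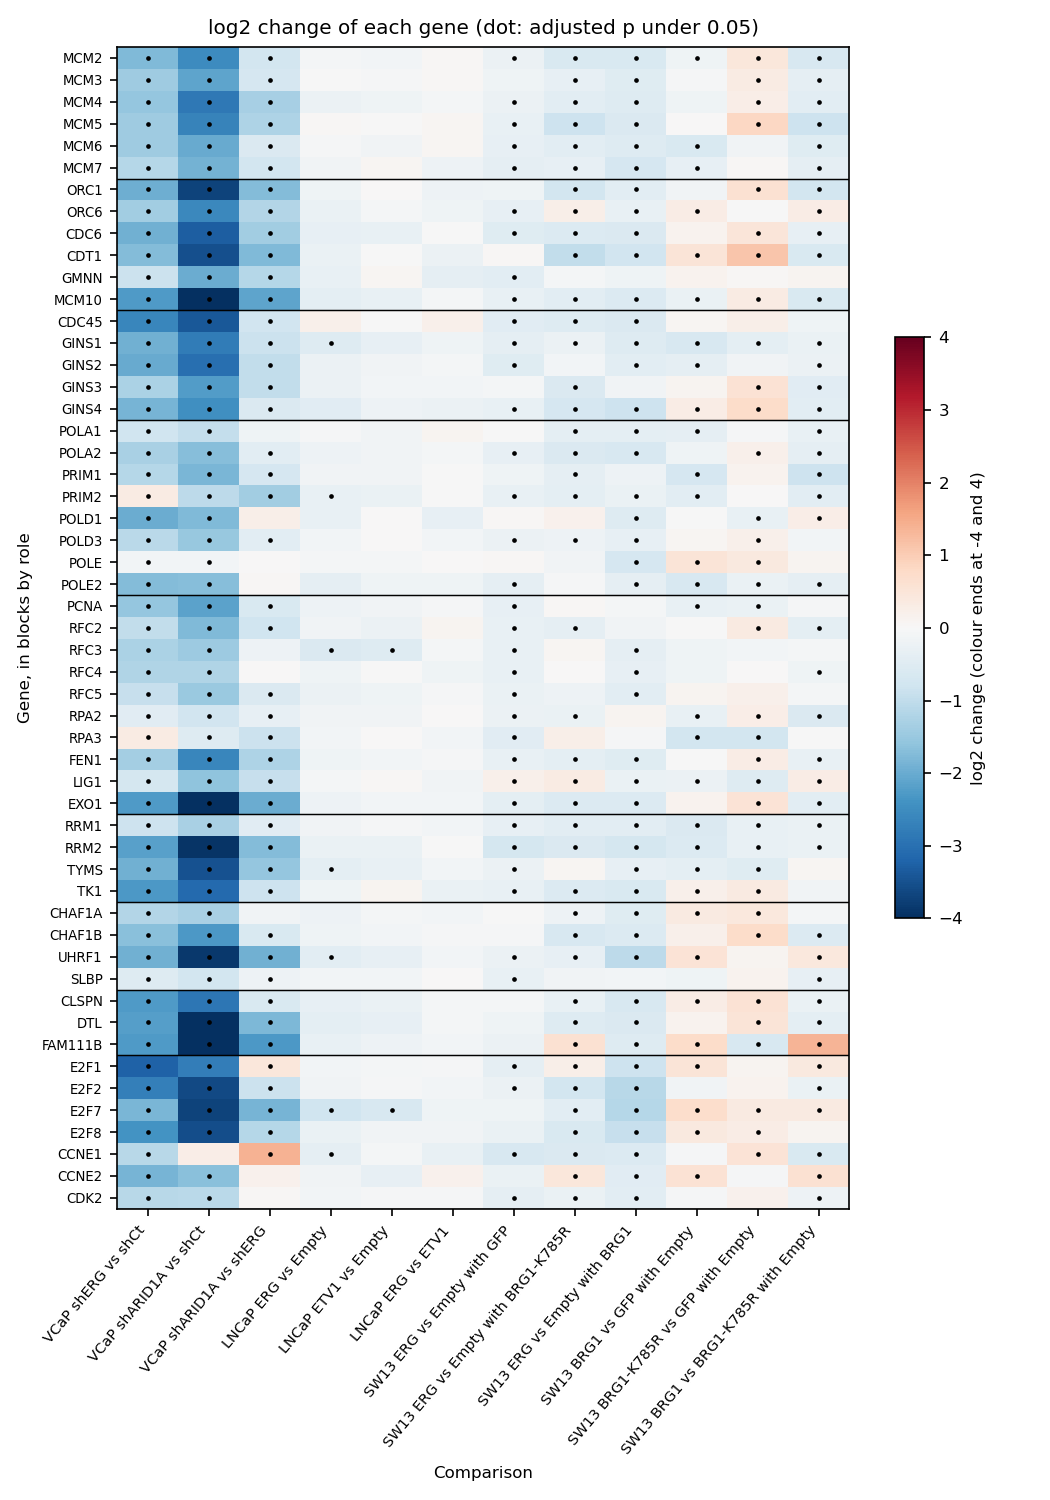
log2 change of each of the 53 genes (rows, in blocks by role) in 12 comparisons of groups (columns), with a dot where the adjusted p is under 0.05. The VCaP columns against shCt are negative almost throughout, and the LNCaP columns carry 7, 2 and 0 dots. In SW13 the dotted cells of the ERG columns are mostly negative, and the columns without ERG are mixed.

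With shARID1A, 52 of the 53 genes fell and 0 rose by edgeR. DESeq2 called 51 lower and 0 higher, and 0 were higher at an unadjusted p under 0.05. Over all genes, 33.2% were called lower and 32.9% higher. Falls of at least 2-fold were called for 47 of the 53, against 9.70% of all genes, and the median change was -2.24. Both shARID1A libraries lay below both controls for 51 of the 53, against 36.8% of all genes. This comparison shares its controls with that of shERG.

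FAM111B read 3.14 and 3.78 CPM with shARID1A, a change of -4.57 (SE 0.10, adjusted p = 1.08e-19) or 23.7-fold. MCM10 read 2.09 and 1.2 CPM (-4.35), EXO1 1.43 and 1.2 (-4.26) and DTL 1.71 and 1.46, from 25.5 and 23.2 with shCt (-3.99). In each the hairpin libraries stood far below the controls. RRM2 fell by 3.91, from 113 and 110.2 to 8.17 and 7.3 CPM, and UHRF1 by 3.86, from 60.7 and 64.3 to 4.15 and 4.94. TYMS fell by 3.48 and TK1 by 3.12. ORC1 fell by 3.70, CDT1 by 3.51 and CDC6 by 3.31. The MCM2-7 genes fell by 1.89 (MCM7) to 2.87 (MCM4), and MCM4 read 45.3 and 44.1 CPM. CDC45 fell by 3.40 and CLSPN by 2.88.

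E2F7, E2F2 and E2F8 fell by 3.70, 3.62 and 3.55, and E2F1 by 2.78, to 16.5 and 15.8 CPM. Falls were smaller for FEN1, a flap endonuclease (-2.61), PCNA (-2.15), PRIM1, the small primase subunit (-1.81), POLD1 (-1.76), PRIM2 (-1.04), SLBP (-0.72) and RPA3 (-0.52). POLE read 150.4 and 153 CPM (-0.12, adjusted p = 0.0405), a call lost under RLE scaling (adjusted p = 0.0868). CCNE1 was not called (0.26, adjusted p = 0.406).

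Set against shERG directly, shARID1A left 42 genes lower, 2 higher and 9 not called. Of all genes, 36.2% were called lower and 36.8% higher. The median change was -0.78, and 18 genes were at least 2-fold lower, against 10.3% of all genes. MCM10 was lower by a further 2.09, EXO1 by 1.99, UHRF1 by 1.93, RRM2 by 1.73 and CDC6 by 1.39. All 6 licensing genes were at least 2-fold lower than with shERG. CCNE1, at 0.681 and 1.59 CPM with shERG, read 2.76 and 2.53 with shARID1A (1.38, adjusted p = 0.000317). E2F1 was also higher (0.46, adjusted p = 0.000801), a call lost without shERG library 1 (adjusted p = 0.138). Those not called were POLA1, POLD1, POLE, POLE2, RFC3, RFC4, CHAF1A, CCNE2 and CDK2. For E2F1, CCNE1, CCNE2 and POLD1 the mean CPM was lowest with shERG, and for the other 49 genes with shARID1A.

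**Figure D3:**
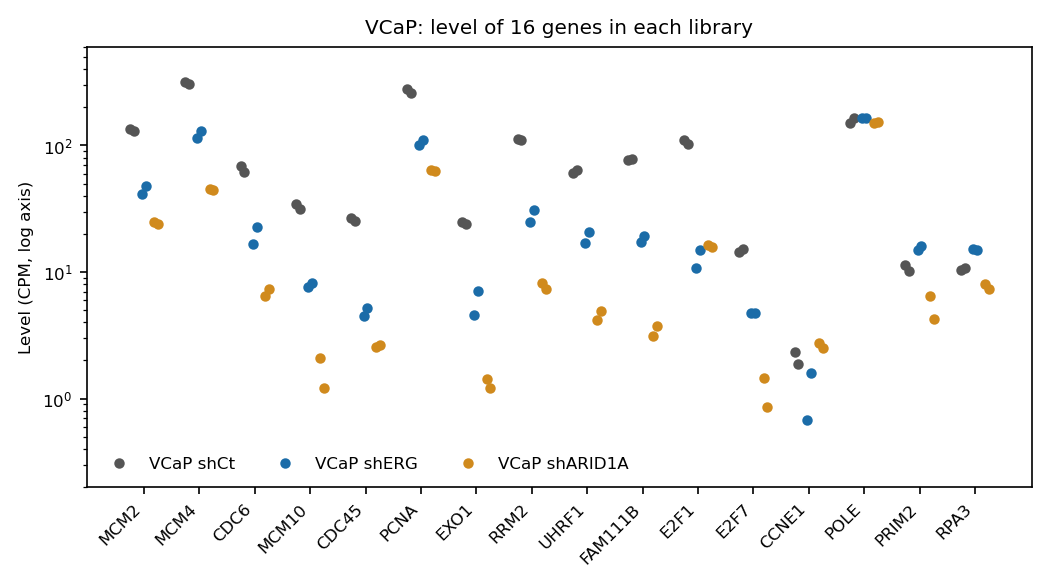
Level (CPM, log axis) of 16 of the genes in each VCaP library, with points for the 2 libraries of shCt, shERG and shARID1A. For MCM10 and EXO1 shCt is highest, shERG lies between and shARID1A is lowest, POLE is level, and E2F1 and CCNE1 are lowest with shERG.

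Further genes of the pathway were read in the same fits. Of 31 other replication genes, 26 fell and 3 rose with shERG (median -0.57), and 27 fell and 3 rose with shARID1A (median -1.09). Of all genes, 37.4% were called lower and 29.3% higher with shERG, and 33.2% and 32.9% with shARID1A. All 30 mitotic genes fell with either hairpin, with medians of -0.93 and -2.75. MKI67, the proliferation marker, read 189 and 183 CPM with shCt, 48 and 51.9 with shERG and 22.4 and 19.5 with shARID1A. MYBL2, which activates late cell cycle genes, fell by 2.53 and 3.97. Among the inhibitors of cyclin-dependent kinases, CDKN2B rose by 2.66 and 2.60 and CDKN1B by 1.04 and 0.69. CDKN1A read 181 and 169 CPM with shCt, 82.4 and 74.3 with shERG and 326 and 381 with shARID1A, so it fell with one hairpin and rose with the other (-1.34 and 0.94). CDKN2B has an antisense neighbour, and without a known strand setting their reads may mix.

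In LNCaP the comparisons asked what ERG or ETV1 changes in a line without the fusion. The ERG libraries differed between themselves. In ERG library 1 all 53 genes were below both Empty libraries, with a median log2 ratio to the control mean of -0.46. In ERG library 2 that median was 0.0090, with 17 genes below and 23 above both controls. The medians over all genes were -0.014 and -0.0076. The ETV1 libraries had medians of -0.084 and -0.22 over the 53 genes.

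**Figure D4:**
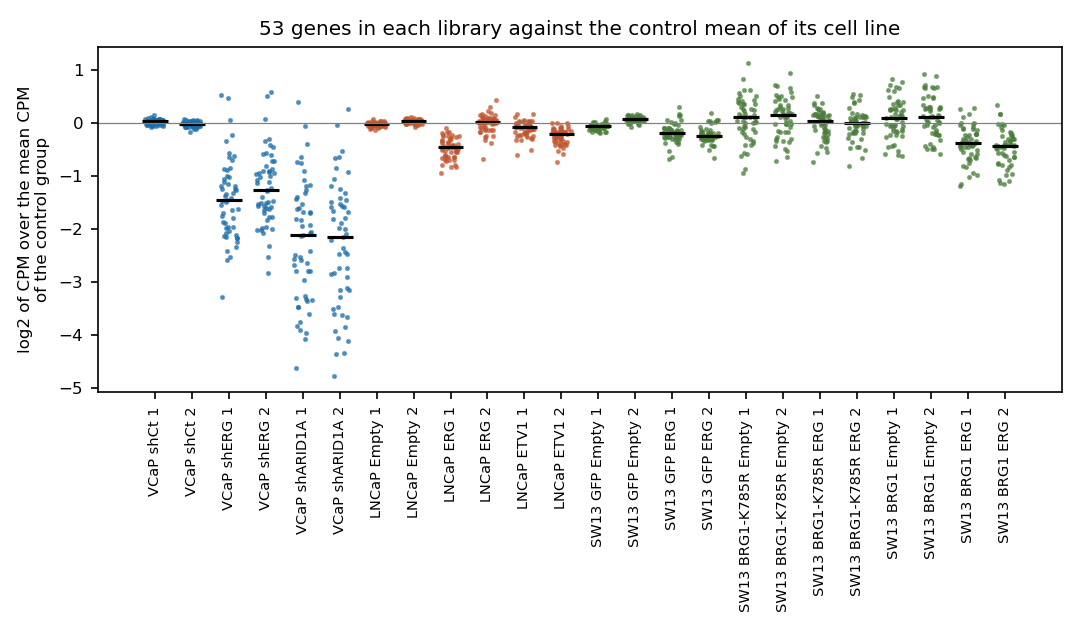
log2 of each gene's CPM over the mean of its line's control group (shCt, Empty, or GFP with Empty), for the 53 genes in each library. LNCaP ERG library 1 has a median of -0.46 and library 2 one near 0, and the VCaP hairpin libraries lie lowest.

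With ERG, 7 of the 53 genes fell and 0 rose by edgeR, against 14.3% of all genes called lower and 15.4% higher. DESeq2 called 6 lower and 0 higher, and 13 were lower and 0 higher at an unadjusted p under 0.05. Both ERG libraries lay below both controls for 17 of the 53, against 34.8% of all genes, and the median change was -0.20. E2F7 read 13.2 and 14.6 CPM with Empty and 7.2 and 8.65 with ERG (-0.81, adjusted p = 0.00108), and the groups did not overlap. RFC3, a clamp loader subunit, read 37 and 41.4 against 22.1 and 30.2 CPM (-0.58). The other calls were GINS1 (-0.51), UHRF1 (-0.43), TYMS (-0.38), CCNE1 (-0.35) and PRIM2 (-0.30).

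No MCM2-7 gene was called, and MCM2, at 109 and 113 CPM with Empty and 88.5 and 123 with ERG, shows the ERG libraries on either side of the controls. Without ERG library 2, most of the 53 were called lower, and without ERG library 1, few were called and in both directions. Leaving out either Empty library also left few calls. Over all genes, fewer were called in each of these runs than in the full fit. E2F7 kept the call under every alternative run.

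With ETV1, which shares the Empty controls, 2 genes fell and 0 rose by edgeR, against 12.9% of all genes called lower and 13.2% higher. These were E2F7 (9.14 and 8.36 CPM, -0.63, adjusted p = 0.00378) and RFC3 (27.4 and 26.2 CPM, -0.51, adjusted p = 0.0153). DESeq2 called 3 lower and 0 higher, and 6 were lower and 0 higher at an unadjusted p under 0.05. Both ETV1 libraries lay below both controls for 36 of the 53, against 37.5% of all genes. The count was 13 with only the compared groups in the fit and 1 without Empty or ETV1 library 1 or 2. Between ERG and ETV1, edgeR and DESeq2 called 0 of the 53, with 3 lower at an unadjusted p under 0.05, against 6.50% of all genes called lower and 7.87% higher. Without ERG library 2, 19 were called, all lower, and without ERG library 1, 2 were called, both higher, so the direction turned with the library left out.

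Of the 30 mitotic genes in LNCaP, 6 fell and 0 rose with ERG by edgeR, against 14.3% of all genes called lower and 15.4% higher. Their summed level was 1610 and 1798 CPM with Empty and 1035 and 1562 with ERG, and ERG library 1 was the lower here too. CDKN2B read 1.44 and 1.69 CPM with Empty, 13.2 and 14.3 with ERG and 22.5 and 19 with ETV1, well above the controls in both. CDKN1A rose by 0.77 with ERG and by 0.52 with ETV1.

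In SW13 the comparisons asked what ERG changes beside GFP, BRG1-K785R or BRG1. Beside GFP, 36 of the 53 genes fell and 1 rose, against 13.5% of all genes called lower and 12.6% higher, with a median of -0.29. RRM2 read 292 and 364 CPM with Empty and 209 and 206 with ERG (-0.72, adjusted p = 1.98e-07), and the groups did not overlap. CCNE1 went from 24 and 24.8 to 15.2 and 17.2 CPM (-0.65), CDC6 fell by 0.48 and MCM7 by 0.36. LIG1, the ligase that joins lagging-strand fragments, was the gene that rose (0.20, adjusted p = 0.0449). Its call was lost with no filter on low counts (adjusted p = 0.0765) and without any 1 of the 4 libraries (adjusted p = 0.0624 to 0.354). The genes not called were MCM3, ORC1, CDT1, GINS3, POLA1, PRIM1, POLD1, POLE, CHAF1A, CHAF1B, CLSPN, DTL, FAM111B, E2F7, E2F8 and CCNE2. The summed level differed between the GFP Empty libraries, at 4943 and 5467 CPM. Fewer of the 53 were called without GFP Empty library 2 or without either GFP ERG library. Calls over all genes fell in these runs too. Under every alternative run, 8 genes kept the call.

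Beside BRG1-K785R, 36 genes fell and 5 rose, against 30.9% of all genes called lower and 25.3% higher, and the median was -0.36. CDT1 read 120.0 and 105 CPM with Empty and 62.7 and 66.7 with ERG (-0.99, adjusted p = 6.66e-12), so the groups stood well apart. MCM5 fell by 0.81, ORC1 by 0.72, E2F2 by 0.72 and GINS4 by 0.69. FAM111B rose from 35.9 and 47.8 to 76.5 and 67.9 CPM (0.61, adjusted p = 2.3e-06). CCNE2 rose by 0.45, LIG1 by 0.33, E2F1 by 0.23 and ORC6, an origin recognition subunit, by 0.22. The calls of E2F1 and ORC6 were lost without BRG1-K785R Empty library 2 (adjusted p = 0.147 and 0.294) and without BRG1-K785R ERG library 2 (adjusted p = 0.137 and 0.167), and that of ORC6 with no filter (adjusted p = 0.0663). With library totals as the scale, which moved the median of all genes from -0.012 to 0.17, 11 rose and 24 fell, so 31.4% of the calls were higher in place of 12.2%. In these libraries SMARCA4 itself read 2180 and 2039 CPM with Empty and 1416 and 1430 with ERG, and its part in the result was not tested.

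Beside BRG1, 45 genes fell and 0 rose by edgeR, against 22.8% of all genes called lower and 22.6% higher. DESeq2 called 44 lower and 0 higher, and 48 were lower and 0 higher at an unadjusted p under 0.05. The median was -0.50, and both ERG libraries lay below both Empty libraries for 52 of the 53 genes, against 40.7% of all genes. E2F7 read 31.4 and 34.7 CPM with Empty and 14.3 and 14.9 with ERG (-1.13, adjusted p = 1.68e-10). E2F2 read 53 and 56.3 against 24.3 and 24.7 CPM (-1.11), and UHRF1 177 and 175 against 82.2 and 83.1 (-1.05). These 3 genes fell at least 2-fold, against 3.80% of all genes. E2F8 fell by 0.92, GINS4 by 0.84, E2F1 by 0.82, CDT1 by 0.78 and RRM2 by 0.70. All 6 MCM2-7 genes fell, by 0.50 (MCM3) to 0.66 (MCM7). POLE, level in VCaP, fell here by 0.67, from 313 and 325 to 189 and 199.9 CPM. Those not called were GMNN, GINS3, PRIM1, PCNA, RFC2, RPA2, RPA3 and SLBP, and PCNA read 225 and 221 CPM with Empty and 213 and 197 with ERG.

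The differences between these ERG effects were tested within the same fit, and they share libraries. The part of the ERG level in each setting was not tested. Beside BRG1 the change was lower than beside GFP for 21 genes and higher for 2 (RPA2 and RPA3), against 18.7% and 19.1% of all genes. It was lower by 0.97 for E2F7, 0.87 for E2F2, 0.82 for CDT1 and 0.82 for UHRF1. Without GFP Empty library 1, 15 of the 53 differed. Beside BRG1-K785R against GFP, 12 differences were higher and 10 lower, against 17.5% and 22.4% of all genes, with CDT1 (-1.03) and FAM111B (0.84) at the ends. With library totals these were 15 and 5, without GFP Empty library 1 they were 13 and 5, and without GFP Empty library 2 they were 5 and 14, so the balance turned with a single control library. Without GFP ERG library 2 they were 6 and 9, without BRG1-K785R Empty library 1 they were 8 and 10, and without BRG1-K785R ERG library 1 they were 6 and 11. Beside BRG1 against BRG1-K785R, 17 were lower and 2 higher (GINS3 and RPA2), against 20.4% and 25.8% of all genes. The differences were -1.13 for FAM111B, -1.05 for E2F1 and -0.89 for CCNE2. With library totals 35 were called, all lower.

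**Figure D5:**
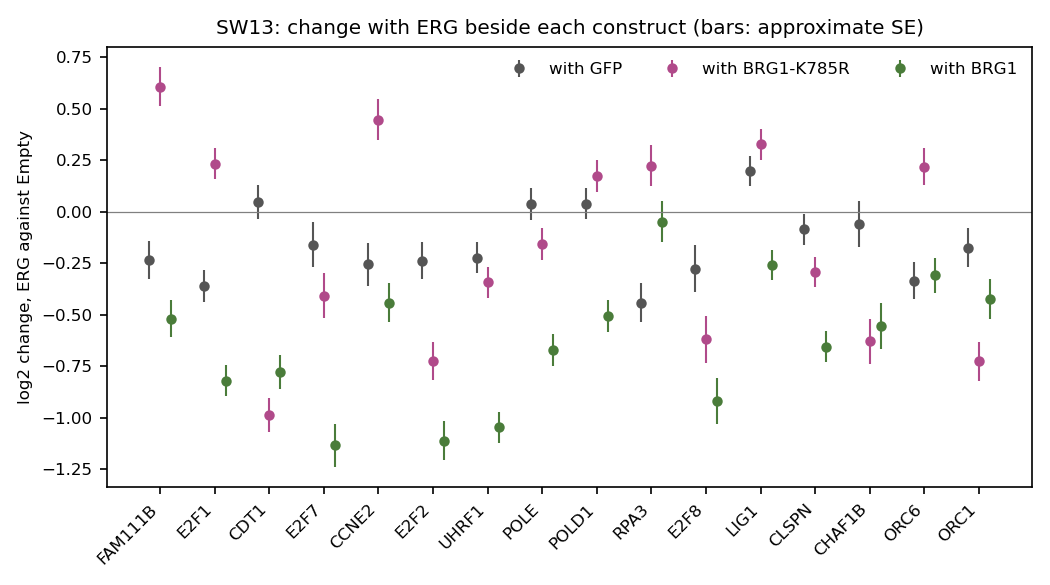
log2 change with ERG against Empty in SW13 beside GFP, BRG1-K785R and BRG1, for the 16 of the 53 genes with the largest differences between settings. Points are estimates and bars approximate SE. E2F7, E2F2 and UHRF1 lie lowest beside BRG1, and FAM111B and CCNE2 are above 0 beside BRG1-K785R.

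Without ERG, the constructs moved the genes in mixed directions, and these comparisons share groups. BRG1 against GFP gave 13 genes higher and 17 lower, against 32.2% and 30.2% of all genes, and with library totals 20 and 13. The split depended on the control library, with 10 higher and 23 lower without GFP Empty library 1 and 16 and 12 without library 2. FAM111B rose from 66.2 and 71.5 to 123 and 127 CPM (0.73), E2F7 rose by 0.71 and CCNE2 by 0.58, and RPA3 fell by 0.74 and PRIM1 by 0.68. BRG1-K785R against GFP gave 25 higher and 10 lower, against 32.3% and 26.4% of all genes, with a median of 0.19. Without GFP Empty library 1 these were 17 and 12, and without library 2 they were 30 and 5. CDT1 rose from 53.6 and 55.5 to 120.0 and 105 CPM (1.12, adjusted p = 2.4e-13), MCM5 by 0.84 and CHAF1B, a histone chaperone subunit, by 0.74, while RPA3 fell by 0.72 and FAM111B by 0.65. BRG1 against BRG1-K785R gave 8 higher and 33 lower, against 32.6% and 34.1% of all genes, with a median of -0.28. That split was 14 and 18 with library totals, a scale that moved the median of all genes from 0.0084 to 0.22. FAM111B was higher with BRG1 by 1.37, and MCM5 and PRIM1 were lower by 0.82 and 0.82.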

How the data were processed

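RNA was sequenced as 75 base single-end reads, per the labels' protocols, in 24 libraries from cultures infected and selected independently. The authors deposited, per library, a read count, a length and an RPKM value for each gene. The deposited counts are whole numbers and they alone were tested, while the deposited RPKM values equal counts divided by library total and gene length (ratio 1.00000 to 1.00001) and were used only to compare levels between genes. STAR 2.3.1 and hg19 are named per the submitters' processing notes. How reads were assigned to genes, and whether strand was used, is not given in the sources used here. In RefSeq (GRCh38.p14), 22 of the 53 genes overlap another gene, among them PRIM2, RPA3, TYMS, PCNA and LIG1, so their reads are uncertain.

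Each cell line was fitted with all its groups in edgeR 4.0.16 (R 4.3.3) with TMM scaling (factors 0.938 to 1.077, 0.983 to 1.014 and 0.911 to 1.065 in VCaP, LNCaP and SW13) and filterByExpr, leaving 16791, 16993 and 17018 genes, and 3, 3 and 6 residual degrees of freedom. The quasi-likelihood F test was adjusted over all genes tested, with a threshold of 0.05. The SE is the log2 change divided by the root of F. CPM are counts over the library total. Replicates varied beyond counting error (chi-square per degree of freedom 2.32 to 13.8). The fit was run on simulated counts with a single spread for all genes and few changed genes. Such counts cannot test the scaling or the spread of these data. Alternatives were RLE scaling, library totals, no filter, DESeq2 1.42.0, only the compared groups, the replicate number as a block, each library left out, and SW13 without both BRG1-K785R Empty libraries. Tables were made with pandas 2.3.3 and numpy 2.4.6 in Python 3.11.15, and figures with matplotlib 3.10.9.

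The 53 genes, their roles and the other lists were chosen with earlier results of these data known. Named were, per comparison, up to 2 called genes of each role with the largest change and at least 5 CPM, called genes against the majority, genes not called, and up to 3 genes per other list by smallest adjusted p. A few more of the 53 and of the other lists are named for comparison. One marker gene is not reported here and was left out of its list.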

Additional observations from a re-analysis of the deposited data

Results flagged for a closer look

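The ERG effect differed between settings in SW13 for 23 of the 53 genes between BRG1 and GFP, for 22 between BRG1-K785R and GFP and for 19 between BRG1 and BRG1-K785R, each by a test of the difference itself in edgeR. These are 43.4%, 41.5% and 35.8% of the 53, against 37.8%, 39.8% and 46.2% of all genes tested. Such differences were thus also common over all genes, and between BRG1 and BRG1-K785R more common than among the 53. Among the 53, the largest differences between BRG1 and GFP on the log2 scale were -0.97 for E2F7 (adjusted p = 7.3e-06), -0.87 for E2F2 and -0.82 for CDT1. Between BRG1-K785R and GFP they were -1.03 for CDT1, 0.84 for FAM111B and 0.70 for CCNE2. Between BRG1 and BRG1-K785R they were -1.13 for FAM111B, -1.05 for E2F1 and -0.89 for CCNE2. FAM111B and CCNE2 rose with ERG beside BRG1-K785R (by 0.61 and 0.45) and fell beside BRG1 (by 0.52 and 0.44).

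POLD1 lay lower in both LNCaP ERG libraries and higher in both SW13 ERG libraries beside GFP than in the controls. In LNCaP it read 29.6 and 33.6 CPM with Empty and 22.5 and 28.7 with ERG, a log2 difference of -0.30 that was not called. In SW13 beside GFP it read 82.1 and 80.7 CPM with Empty and 88.8 and 84.8 with ERG (0.039, not called). Over all genes, the median log2 ratio to the control mean was 0.059 and 0.042 in the SW13 ERG libraries beside GFP. In LNCaP ERG library 1 all 53 genes lay below both controls. The difference between the cell lines was not tested.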

How the results depend on the processing

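Of 166 alternative counts of called genes, 146 stayed within 1.5 times the count reported, among them every VCaP count. This rule ignored direction, so a count could stay while its split into higher and lower shifted. An example above is BRG1 against BRG1-K785R without ERG, with library totals. The lowest and highest counts over left-out libraries were 51 and 53 for shERG, 51 and 52 for shARID1A, 1 and 44 for LNCaP ERG, 1 and 1 for LNCaP ETV1, 0 and 19 for ERG against ETV1, 8 and 40 for SW13 ERG beside GFP, 42 and 45 beside BRG1, and 15 and 24 for the difference of ERG effects between BRG1 and GFP. The LNCaP ETV1 count of 2 became 5 with library totals, 4 with no filter and 13 with only the compared groups. ERG against ETV1 became 1 under RLE scaling and 1 with no filter. The difference between BRG1 and BRG1-K785R went from 19 to 35 with library totals, where the median of all genes moved from 0.053 to -0.18.

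With library totals POLE reversed to 0.063 for shERG against shCt and to -0.11 for shARID1A against shERG, and for BRG1 against BRG1-K785R PCNA (0.18), RFC4 (0.033), CHAF1A (0.15) and CDK2 (0.0042) reversed. That scale moved the median of all genes from -0.053 to 0.13 for shERG. The cause was not tested. Of 8798 alternative log2 changes of single genes, 7826 kept direction and call. The call was lost by 378 and gained by 232, while 356 moved without a call and 6 reversed.

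With the replicate number as a block, the LNCaP ERG count was 6 in place of 7, and no other count of calls changed. Deviations of same-numbered libraries correlated at -0.066 to 0.032 in VCaP, -0.28 to 0.043 in LNCaP and -0.28 to 0.39 in SW13. In SW13, 4 of 15 group pairs exceeded 0.1. The cultures were infected and selected independently, so the numbers were not read as pairs. With 2 libraries a group, a lone library in a left-out fit is assumed to vary like the other groups. CCNE1 in VCaP rests on few reads.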

Other observations

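Beside BRG1 in SW13, 23 of 30 mitotic genes fell with ERG and 0 rose by edgeR (median log2 change -0.45), against 22.8% of all genes called lower and 22.6% higher. MKI67 read 757 and 759 CPM with Empty and 386 and 404 with ERG (-0.89). Of 31 further replication genes 18 fell and 2 rose. CDKN2B read 77.6 and 76.2 CPM with BRG1 and Empty, 29.1 and 29.3 with BRG1 and ERG, and 16 and 16.1 with GFP and Empty. It rose with BRG1 and fell when ERG was added (2.13 and -1.35), whereas in LNCaP it rose with ERG by 3.14. CHTF18, part of an alternative clamp loader, rose with ERG beside BRG1-K785R by 1.35, and the difference from its change beside BRG1 was -2.17. MYBL2 read 179 and 161 CPM with BRG1-K785R and Empty and 95.6 and 95.4 with BRG1-K785R and ERG.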
